A study of Mus musculus with 53 samples.

Results

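The YAP/TEAD target genes described here are 9 of the 55421 gene rows counted in 53 libraries: Ccn1, Ccn2, Ankrd1, F3, Myof, Axl, Amotl2, Lats2 and Ajuba. These members were chosen by name as genes that YAP with a TEAD factor is known to switch on, and each was found in the table through its Ensembl identifier. Every row was followed through 11 groups of mouse intestine, each set against its own WT. All mice carried VilCreER, a tamoxifen-activated Cre recombinase driven by the villin promoter and so active in the intestinal epithelium, and the WT mice carried no other allele. In the proximal colon, at day 30 after induction, there were 4 WT and 4 VilCreER+ Alk5fl/fl mice (A, in which the TGFβ receptor gene Tgfbr1, also called Alk5, is deleted). There were also 4 A mice given sulindac (0.4 g/L), 5 VilCreER+ BrafV600E/+ Alk5fl/fl (BA) and 5 BA mice given antibiotics (ampicillin 1 g/L, neomycin trisulphate 1 g/L, vancomycin 500 mg/L and metronidazole 1 g/L). Primary BA tumours (n = 4) were set against untreated WT proximal colon (n = 3). In the small intestine, VilCreER+ APCfl/fl tissue at day 4 (written Apcfl/fl, n = 10) was set against WT at day 4 (n = 6), and VilCreER+ Apcfl/+ primary tumours (n = 5) against WT small intestine (n = 3). The last 2 groups were inbred C57BL6/J (N9) and the others mixed C57BL/6J backcrossed to N6. Ages and sexes were not given per mouse, and no group carried BrafV600E without the Alk5 deletion.

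The Hippo pathway is a chain of kinases that keeps the co-activators YAP and TAZ out of the nucleus. When the chain is slack, they enter, bind TEAD transcription factors and switch on genes of matrix, adhesion and growth, together with genes such as Amotl2, Lats2 and Ajuba whose products act on the pathway itself. In the intestine YAP is known for its part in regeneration after injury and in a foetal-like epithelial state, but many of its targets are also strong in fibroblasts, endothelium and smooth muscle. The libraries were made from whole tissue, in which fewer cells of a type and less RNA per cell cannot be told apart.

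Values below are normalised CPM (counts scaled to library size), scaled together over the 53 libraries, and folds are log2 fold changes from a separate fit of each comparison. Total counts ran from 10005066 to 32824795 per library, except that the Apcfl/fl library 1 held 516985. Gene counts did not show the deletions: Tgfbr1 lay between 42 and 58.2 CPM in BA day 30 tissue and between 34.7 and 65.2 in WT, and Apc between 36.5 and 147 CPM in Apcfl/fl tissue and between 64.4 and 111 in its WT. Counts over a whole gene include exons outside a deleted stretch and cells without Cre, so they check the labels little. Ddx3y, a Y-linked gene, exceeded 10 CPM in 3 of 4 BA tumours and 0 of 3 WT proximal colons, and in 1 of 5 Apcfl/+ tumours and 3 of 3 WT small intestines, so sex was not balanced there. Xist, a gene expressed in female cells, exceeded 10 CPM in 2 of 4 BA tumours, so reads of both genes met in a BA tumour library. The reason for this was not tested. A Gapdh-like copy, Gm13394, exceeded 10 CPM in every A and BA library at day 30 and in 0 of 4 WT day 30 libraries. It did so in 3 of 4 BA tumours and 0 of 3 WT proximal colons, and in 0 of 5 Apcfl/+ tumours and 3 of 3 WT small intestines. Its part in these comparisons was not tested, and in BA against A at day 30 both groups exceeded 10 CPM throughout. Of the members, 2 share sequence with a neighbour: 41.6% of the 36-base words of Lats2 lie in Gm49361, which overlaps it on the same strand, and 18.8% of those of Ccn2 in Gm15270 on the opposite strand, so counts of Lats2 and Ccn2 depend on how shared reads were assigned, which was not stated. The other members shared at most 2.33%.

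In GRCm38 with the GENCODE M21 annotation, the genes lie at chr3:145646976-145649981 (Ccn1, minus strand), chr10:24595442-24598683 (Ccn2, plus), chr19:36111961-36120099 (Ankrd1, minus), and chr3:121723537-121735048 (F3, plus). The others lie at chr19:37899036-38043577 (Myof, minus), chr7:25757273-25788705 (Axl, minus), chr9:102716672-102733418 (Amotl2, plus), chr14:57689662-57758388 (Lats2, minus) and chr14:54567472-54577558 (Ajuba, minus). The first 250 bases upstream of the RefSeq start (GRCm38.p6) are shown for 4 members whose behaviour differed most in what follows: Ccn1 and Ajuba, raised in tumours but not in BA tissue at day 30, F3, raised in both, and Axl, which varied with fibroblast genes. Capitals mark the TEAD core GGAATG, read on either strand (CATTCC), and the AP-1 motif TGANTCA. The windows are Ccn1 chr3:145649986-145650235 on the minus strand, Ajuba chr14:54577662-54577911 on the minus strand, Axl chr7:25788734-25788983 on the minus strand, and F3 chr3:121723287-121723536 on the plus strand. The first 3 lie outside annotated exons, and 116 bases of the F3 window overlap an exon of the gene Gm43823 on the other strand.
Ccn1: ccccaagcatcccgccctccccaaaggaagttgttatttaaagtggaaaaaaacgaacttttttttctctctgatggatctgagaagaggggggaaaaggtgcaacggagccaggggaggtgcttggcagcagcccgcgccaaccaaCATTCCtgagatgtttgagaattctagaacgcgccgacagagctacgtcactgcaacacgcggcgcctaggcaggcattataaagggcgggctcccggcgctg
Ajuba: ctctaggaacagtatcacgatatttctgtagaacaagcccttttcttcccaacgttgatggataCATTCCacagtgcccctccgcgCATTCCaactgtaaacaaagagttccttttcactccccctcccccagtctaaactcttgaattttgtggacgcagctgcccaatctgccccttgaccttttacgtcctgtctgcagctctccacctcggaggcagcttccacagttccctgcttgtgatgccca
Axl: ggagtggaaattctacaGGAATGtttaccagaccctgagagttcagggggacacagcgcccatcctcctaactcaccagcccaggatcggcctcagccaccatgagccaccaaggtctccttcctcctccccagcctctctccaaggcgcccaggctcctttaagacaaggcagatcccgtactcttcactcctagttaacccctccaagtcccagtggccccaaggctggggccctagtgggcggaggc
F3: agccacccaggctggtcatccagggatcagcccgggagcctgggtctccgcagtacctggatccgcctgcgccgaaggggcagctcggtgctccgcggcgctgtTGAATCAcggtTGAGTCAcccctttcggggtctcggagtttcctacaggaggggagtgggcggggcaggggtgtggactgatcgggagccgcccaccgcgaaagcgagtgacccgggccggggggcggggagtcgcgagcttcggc
The TEAD core starts 103 bases before the start of Ccn1, 233 before that of Axl, and 186 and 164 before that of Ajuba, and F3 holds 2 AP-1 motifs that start 146 and 135 bases before its start. Among the 8 members with an entry, 5 held the TEAD core in this window (these 3, Amotl2 and Ankrd1) and 1 held the AP-1 motif, where 12.6% and 6.75% of 32851 promoters held them. Myof, raised in tumours and at day 30 like F3, held neither motif, and nor did Lats2. The windows of Ankrd1 and Amotl2 overlap annotated exons by 250 and 136 bases. A match is a description of letters and not a bound site.

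Against their own WT, most members rose in tumours of both kinds, some after acute Apc loss, and F3 and Myof alone in BA tissue at day 30. In BA tumours, 7 of 9 rose and none fell (adjusted p under 0.05 by edgeR's quasi-likelihood test), where 7.46% of all genes tested rose and 5.71% fell, 13.2% in all, and the same number, 7 of 9, did not overlap WT, as did 27.5% of all genes. Their median log2 fold change was 2.36, against 0.03 over all genes. In BA tissue at day 30, 2 of 8 tested rose and 1 fell, where 25.8% of all genes rose and 29.3% fell, 55.1% in all. Of the 8, 3 did not overlap WT (45.4% of all genes), and the median was 0.06. In BA tissue under antibiotics, 3 of 9 rose and none fell, where 21.8% of all genes rose and 17.8% fell, 39.6% in all. There 3 did not overlap WT (32.8% of all genes), and the median was 0.69.

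In A tissue, 0 of 8 members passed, where 0.096% of all genes rose and 0.0452% fell, 0.141% in all, and 1 did not overlap WT (4.69% of all genes). After sulindac, 0 of 8 passed against WT, where 0.0507% of all genes rose and 0% fell. There 2 did not overlap WT (5.11% of all genes). Some members had an unadjusted p under 0.05 by the same edgeR test, but the share of all genes with such a p was not counted. In A tissue they were, by edgeR, F3 (0.56 on the log2 scale, p = 0.000602) and Ccn1 (0.82, p = 0.0156). After sulindac they were, by edgeR, F3 (0.72, p = 0.00469) and Myof (0.52, p = 0.00605). DESeq2 called F3 and Ankrd1 in A tissue and none after sulindac.

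After acute Apc loss 4 of 8 rose and 1 fell, where 27.5% of all genes rose and 26.7% fell, 54.2% in all. Lats2 alone did not overlap WT (16.8% of all genes), and the median was 0.47. In Apcfl/+ tumours 6 of 9 rose, where 31.4% of all genes rose and 61.5% passed in either direction, 7 did not overlap WT (59.2% of all genes), and the median was 2.34 against 0.03. In these 2 comparisons and in BA tissue at day 30, with and without antibiotics, the share of members called in either direction was near or below that of all genes, and the count says nothing particular of the members. Ankrd1 had too few counts to be tested in 4 of the 7 comparisons. The 4 day 30 groups share the same 4 WT libraries, so their values are not independent of each other.

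**Figure D1:**
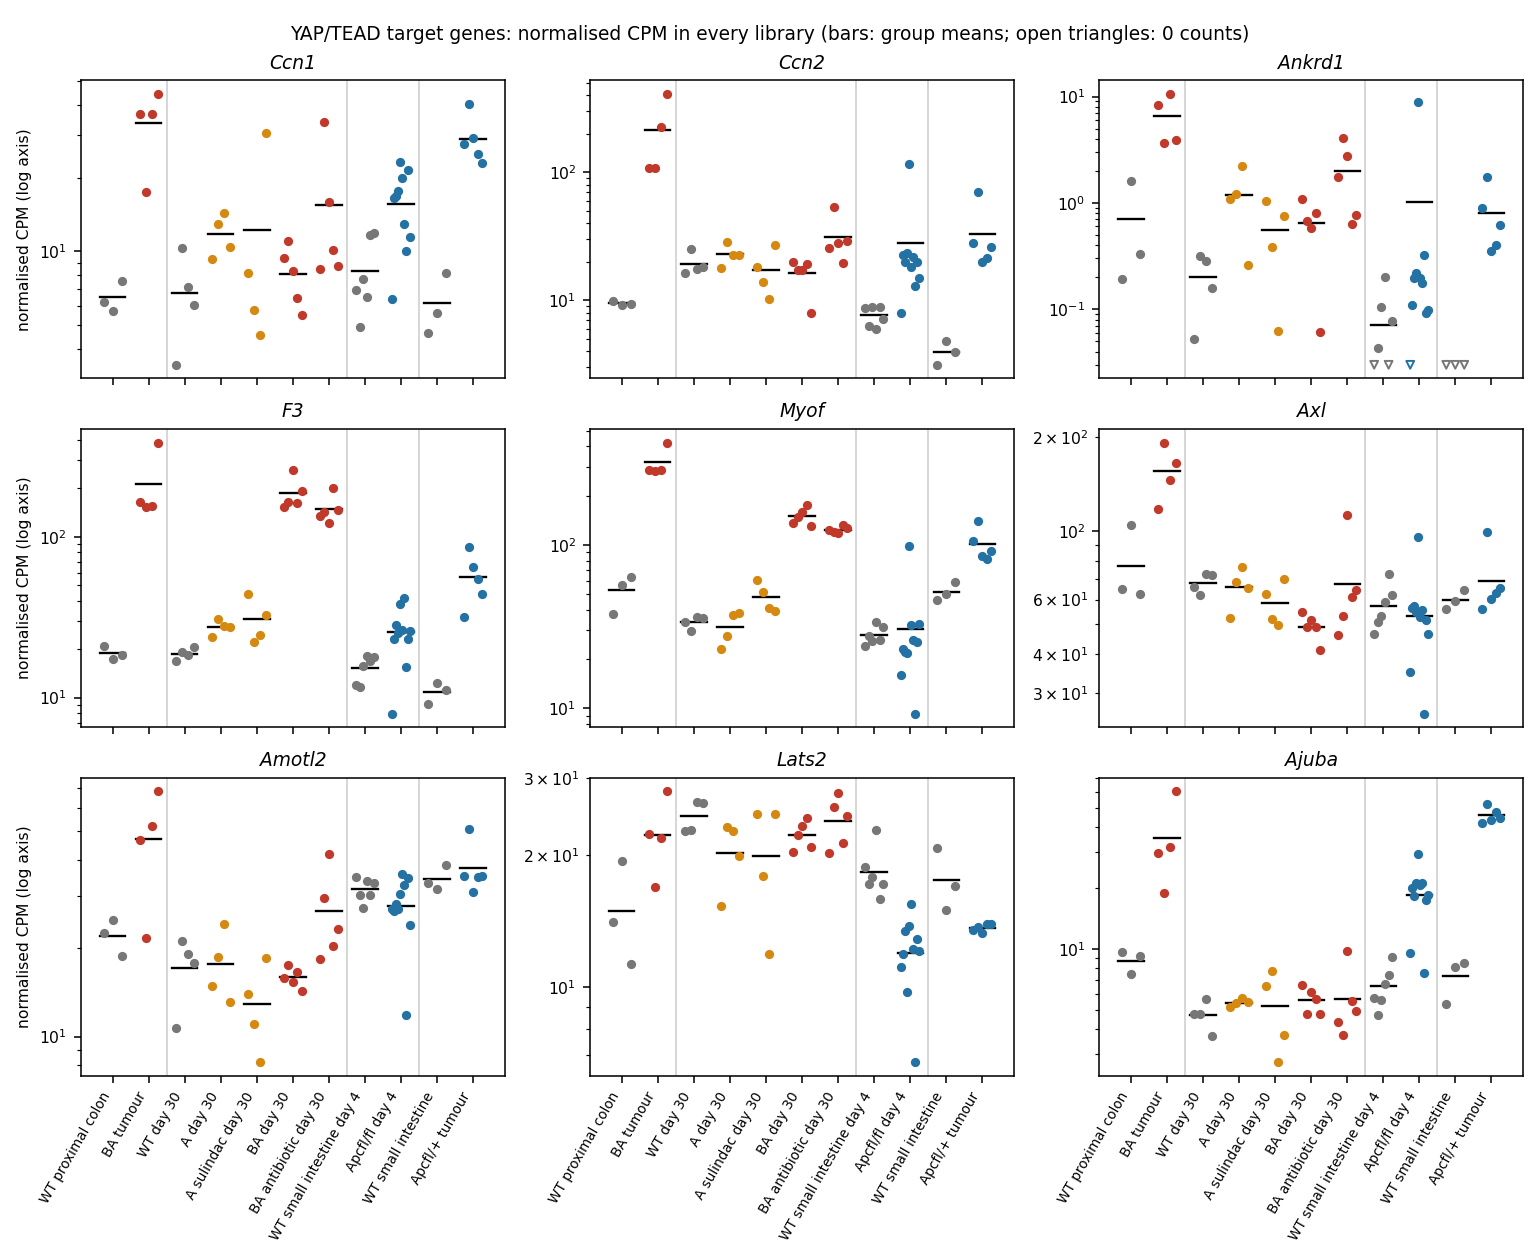
Normalised CPM (log axis) of the 9 members in each of 53 libraries, by group, with bars at group means and open triangles for libraries with 0 counts; grey is WT, orange A, red BA and blue Apc, and vertical lines separate sets with their own WT. F3 and Myof are high in BA day 30, BA antibiotic and BA tumour libraries, and Ccn1, Ccn2 and Ajuba in tumours of both kinds.

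Ccn2 and Ccn1 encode secreted matricellular proteins that bind integrins and are the most used readouts of YAP activity. Ccn2 stood at 9.97, 9.17 and 9.37 CPM in WT proximal colon and at 109, 109, 224 and 410 in BA tumours. The groups were wide apart and the tumours differed among themselves, with a log2 fold change of 4.47 ± 0.54 (SE, adjusted p = 0.00239), the largest of the members. At day 30, BA tissue stood at 19.8, 17.4, 17.4, 19.1 and 7.99 CPM and WT at 16.5, 25.1, 17.7 and 18.3, groups that overlapped, with BA library 5 below every WT and WT library 2 above every BA library (-0.26 ± 0.23, adjusted p = 0.357). Ccn1 was at 36.6, 17.6, 36.6 and 44.3 CPM in BA tumours and 6.2, 5.7 and 7.57 in WT proximal colon, so that every tumour lay above every WT (2.36 ± 0.32, adjusted p = 0.00324). In BA tissue at day 30, Ccn1 ran from 5.51 to 11 CPM beside 3.43 to 10.3 in WT, and its log2 fold change of 0.26 has a 95% interval from -0.38 to 0.89. For both genes the difference of the BA effect between tumours and day 30 passed its own test: 4.71 ± 0.55 for Ccn2 (adjusted p = 9.64e-05) and 2.1 ± 0.45 for Ccn1 (adjusted p = 0.0053), in an interaction fit where 9.87% of all genes were larger in tumours and 6.46% smaller, 16.3% in all, and 6 of 9 members were larger and none smaller.

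Ankrd1, a nuclear cofactor of muscle also induced by YAP in epithelium, was the rarest member. WT proximal colon held 0.194, 1.59 and 0.331 CPM and BA tumours 8.25, 3.66, 10.6 and 3.89 (3.28 ± 0.76, adjusted p = 0.0235), a call kept in 4 of the 7 fits that each left out 1 library. Every tumour was above every WT, in a gene with 6 to 27 counts in those WT libraries and 34 to 187 in the tumours. Mesothelial markers, summed over 4 genes, were at 98.2 to 429 CPM in the BA tumours and 1.1 to 18.7 in WT proximal colon. Msln, the mesothelin gene, was the 1 of 3 tested that passed, at a mean of 213 CPM in tumours and 2.44 in WT. The other markers were not higher in tumours. Their tumour and WT means were 0.571 and 3.6 CPM for Upk3b, 1.5 and 1.7 for Wt1, and 0.213 and 1.6 for Lrrn4 (not tested). Msln was among the 3 genes whose variation within groups was most like that of Ankrd1 (Cdh13, r = 0.68, Olfr1372-ps1, r = 0.67, and Msln, r = 0.67, over 53 libraries with group means removed). The part of mesothelial cells in the rise of Ankrd1 was not tested.

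F3, Myof and Axl encode membrane proteins: tissue factor, which starts the clotting cascade, myoferlin, a ferlin of membrane repair, and a receptor tyrosine kinase for Gas6. F3 and Myof behaved alike in the proximal colon and differently from the other members. F3 stood at 17.0, 19.1, 18.5 and 20.6 CPM in WT at day 30, at 23.9, 30.7, 27.8 and 27.7 in A, and at 154, 164, 259, 163 and 194 in BA. The A libraries lay just above WT and the BA libraries far above both. The log2 fold change of BA against WT was 3.30 ± 0.16 (adjusted p = 7.73e-08) and of BA against A, which carries the Alk5 deletion without BrafV600E, 2.78 ± 0.17 (adjusted p = 1.31e-06). Myof was at 33.7, 29.5, 36.2 and 35.7 CPM in WT, 23.1, 27.6, 37.2 and 38.3 in A and 136, 147, 159, 174 and 130 in BA. A and WT overlapped, and every BA library was far above both (2.13 ± 0.10 against WT, adjusted p = 7.73e-08, and 2.25 ± 0.17 against A, adjusted p = 4.4e-06). In the comparison with A, 21.7% of all genes rose and 23.6% fell, 45.3% in all, and 3 of 9 members passed, the third being Axl, which was lower. Of 10 epithelial markers, 9 rose in the same BA libraries against WT, with a median log2 fold change of 0.77 and a range from -0.08 (Cdx2, not called) to 2.72 (Krt18). Myof lay within that range and F3 above it. Fibroblast markers fell (8 of 10). The part of either in the rise of F3 and Myof was not tested. With a fibroblast marker score as a term the folds against WT were 3.68 and 2.08. The scores of BA (6.09 to 6.41) and WT (6.7 to 6.92) did not overlap, so score and genotype cannot be told apart in that fit.

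In BA tumours F3 stood at 164, 153, 156 and 386 CPM against 21.0, 17.4 and 18.4 in WT, and Myof at 287, 283, 287 and 422 against 37.7, 57.1 and 63.4. Tumour 4 was high for both, and the other 3 tumours were close to each other. The folds were 3.48 ± 0.40 for F3 (adjusted p = 0.00202) and 2.58 ± 0.28 for Myof (adjusted p = 0.0017). The BA effect in tumours did not pass the test of a difference from that at day 30: 0.17 with a 95% interval from -0.60 to 0.94 for F3, and 0.45 from -0.05 to 0.95 for Myof, so a further rise in tumours within these intervals cannot be told from none.

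**Figure D2:**
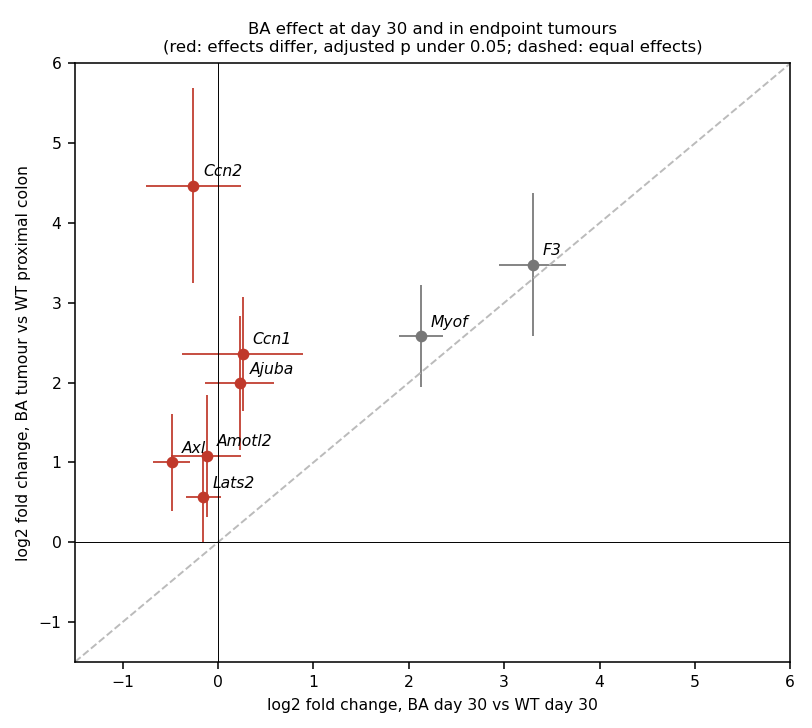
Log2 fold change of each tested member in BA tumours against WT proximal colon (vertical axis) and in BA day 30 tissue against WT day 30 (horizontal axis), with 95% intervals as lines and a dashed line of equal effects. F3 and Myof lie near the line, and the 6 members in red, whose 2 effects differed at an adjusted p under 0.05, lie above it, with day 30 values between -0.48 and 0.26.

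Axl moved the other way at day 30: 54.6, 49.0, 51.6, 49.0 and 41.4 CPM in BA tissue against 65.8, 62.1, 72.3 and 72.1 in WT, and every BA library was below every WT (-0.48 ± 0.09, adjusted p = 0.000857). It rose in BA tumours, at 117, 192, 146 and 165 CPM against 64.8, 104 and 62.5 (1.00 ± 0.27, adjusted p = 0.0408), a call kept in 3 of the 7 fits that each left out 1 library. The tumours were all above WT, with the lowest tumour close to the highest WT, and the difference of the 2 effects was 1.46 ± 0.24 (adjusted p = 0.00102). Fibroblast markers moved the same way: 8 of 10 fell in BA tissue at day 30 (summed level 1170 to 1460 CPM against 1610 to 2000 in WT), and in tumours 4 rose and 1 fell (4900 to 5800 CPM against 1890 to 2980), with none of the 10 at 0 in a group. With the fibroblast score as a term, the fold of Axl at day 30 was -0.04 (edgeR adjusted p = 0.948), in the fit where score and genotype cannot be told apart, and the part of fibroblasts in the change of Axl was not tested.

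Amotl2, Lats2 and Ajuba encode an angiomotin-like scaffold that holds YAP at junctions, a kinase of the Hippo chain and a LIM adaptor that restrains that kinase. Ajuba stood at 29.8, 18.9, 31.8 and 60.2 CPM in BA tumours and 9.59, 7.46 and 9.18 in WT, with no overlap (1.99 ± 0.37, adjusted p = 0.0107), and at 4.74 to 6.61 CPM in BA day 30 tissue beside 3.68 to 5.63 in WT, with overlap (0.23, 95% interval from -0.14 to 0.59). Amotl2 was at 46.7, 21.6, 52.2 and 68.3 CPM in BA tumours and 22.5, 24.9 and 18.8 in WT. Tumour 2 lay within the WT range, and the fold of 1.08 ± 0.34 did not pass (adjusted p = 0.0701). Lats2 was at 22.4, 16.9, 21.9 and 28.0 CPM beside 14.1, 19.4 and 11.3, groups that overlapped (0.56 ± 0.25, adjusted p = 0.178). The BA effect was larger in tumours than at day 30 for Ajuba (1.76 ± 0.38, adjusted p = 0.00552), for Amotl2 (1.2 ± 0.38, adjusted p = 0.039) and for Lats2 (0.72 ± 0.24, adjusted p = 0.0485), the last pair close to the threshold and kept in 4 and 2 of the 16 fits that each left out 1 library.

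The tumour comparison rests on 4 and 3 libraries. Leaving out WT library 1 left 4 of 9 members called, with Ajuba, Ankrd1 and Axl lost. A term for Y-linked reads left 3 (Ccn2, F3 and Myof). A fibroblast score as a term left 0 of 9, in a fit that called 2 genes in all. In it the scores of tumours (7.68 to 7.82) and WT (6.89 to 7.35) did not overlap, so that score and tumour cannot be told apart. Axl was also lost without tumour 3, tumour 4 or WT library 3, and Ankrd1 without tumour 3 or WT library 3. Of the fibroblast markers 4 of 10 rose and 1 fell in the same tumours. Immune markers rose (6 of 10, summed level 292 to 581 CPM against 131 to 212), as did endothelial markers (3 of 8), and smooth muscle markers fell (3 of 8). Their part in the rise of the members was not tested.

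Acute Apc loss raised Ccn1, Ccn2, F3 and Ajuba and lowered Lats2. Ajuba ran from 7.57 to 29.6 CPM with a median of 19.2 in Apcfl/fl tissue and from 4.68 to 9.15 with a median of 6.21 in WT, and 9 of 10 Apcfl/fl libraries were above every WT (1.53 ± 0.22, adjusted p = 2.64e-05). Ccn2 ran from 7.96 to 117 (median 19.9) beside 5.97 to 8.92 (median 7.91), with 9 of 10 libraries above every WT and library 1, the shallow one, inside the WT range (1.92 ± 0.45, adjusted p = 0.00191). Without Apcfl/fl library 5, which held the 117 CPM, the fold was 1.29, and the call held in all 16 fits that each left out 1 library. Ccn1 ran from 6.37 to 23.2 (median 16.7) beside 4.90 to 11.9 (median 7.35), with 7 of 10 libraries above every WT (0.97 ± 0.24, adjusted p = 0.00243). F3 ran from 7.96 to 41.7 (median 25.7) beside 11.6 to 18.2 (median 16.3), with 8 of 10 libraries above every WT (0.78 ± 0.21, adjusted p = 0.00448). Lats2 was the member that fell, from 15.9 to 22.9 CPM in WT to 6.72 to 15.5, with no overlap (-0.60 ± 0.13, adjusted p = 0.00107). Myof, Axl and Amotl2 overlapped their WT, at log2 fold changes of 0.16, -0.09 and -0.17. Endothelial and immune markers fell in the same libraries (7 of 8 and 6 of 10).

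Apcfl/+ tumours repeated the rise of these 4 at larger folds and added Myof and Ankrd1. Ajuba stood at 42.2, 52.1, 43.3, 47.6 and 44.2 CPM against 5.30, 8.13 and 8.52 in WT small intestine, a tight group far above WT, with the smallest adjusted p of the members in these tumours (2.75 ± 0.18, adjusted p = 1.76e-05). Ccn1 was at 27.6, 40.2, 29.1, 25.2 and 23.0 CPM against 4.63, 5.57 and 8.19 (2.34 ± 0.25, adjusted p = 0.000129). Ccn2 was at 28.1, 69.7, 20, 21.3 and 26.1 CPM against 3.14, 4.79 and 3.94, with tumour 2 high (3.16 ± 0.48, adjusted p = 0.000641). F3 was at 31.8, 86.8, 64.8, 54.5 and 44.3 CPM against 9.17, 12.3 and 11.1 (2.48 ± 0.32, adjusted p = 0.000292). Myof was at 105, 140, 85.9, 82.0 and 91.9 CPM against 46.1, 49.8 and 59.0 (1.07 ± 0.19, adjusted p = 0.00132). All 5 tumours lay above all WT for each of these genes. Ankrd1 was at 0 in the 3 WT libraries and at 0.356 to 1.76 CPM in tumours. It was at least 15.8-fold higher, against a limit of 3 counts over the 3 WT libraries together. Lats2, at 13.3 to 13.9 CPM beside 15 to 20.8, did not pass (-0.26 ± 0.12, adjusted p = 0.0741), and Axl and Amotl2 overlapped WT. Fibroblast and endothelial markers rose as well (7 of 10 and 5 of 8, summed fibroblast level 3070 to 3870 CPM against 1480 to 1890), and with a fibroblast score as a term only Ajuba of the members passed. In the 2 groups the fibroblast scores do not overlap, so the score and the tumour state cannot be told apart.

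Between BA and Apcfl/+ tumours, each against its WT, 2 of 9 members differed where 39.7% of all genes did (21.9% larger in BA tumours and 17.7% smaller). Myof rose more in BA tumours, by 1.55 ± 0.31 (adjusted p = 0.00196), and Lats2 by 0.86 ± 0.27 (adjusted p = 0.0221), the latter kept in 6 of the 15 fits that each left out 1 library. For Ccn1 the difference was 0.05 with a 95% interval from -0.79 to 0.90, and for Ccn2 1.33 from -0.11 to 2.77. Tissue and strain background differed between the 2 sets as well.

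**Figure D3:**
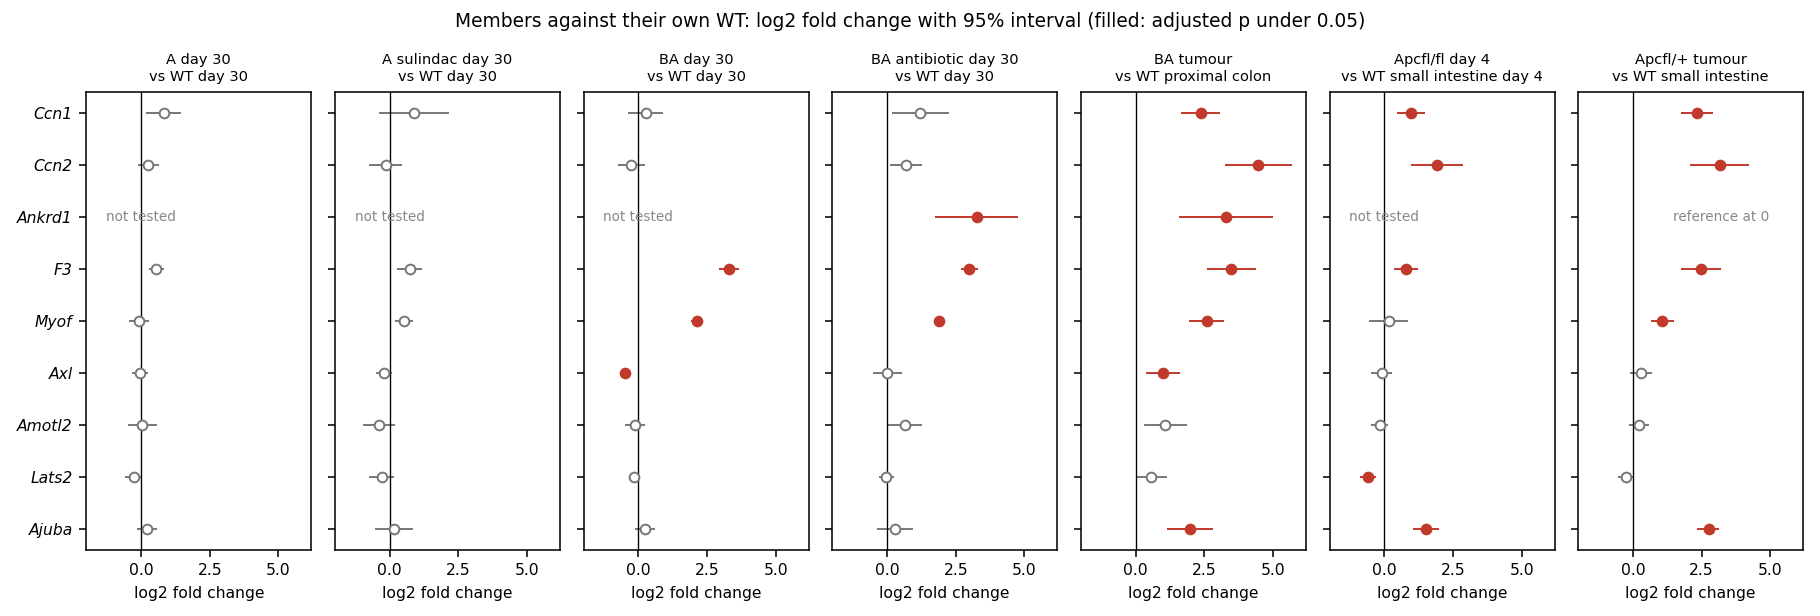
Log2 fold change (horizontal axis) of the 9 members in 7 comparisons with their own WT, with 95% intervals as lines; filled red points have an adjusted p under 0.05. F3 and Myof are past the threshold in all 3 BA comparisons and in Apcfl/+ tumours, while no point is filled in A tissue with or without sulindac.

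Antibiotics tested whether the bacteria of BA colon bear on these genes. Sulindac, an inhibitor of prostaglandin synthesis, was given to A mice. The paper used it for a short spell of wounding and inflammation in the proximal colon. The drug was withdrawn before the tissue was taken, so these libraries show tissue after the insult and not during treatment. Under antibiotics F3 stayed at 135, 143, 122, 202 and 147 CPM and Myof at 123, 120, 118, 132 and 126, far above WT as in untreated BA tissue (3.00 ± 0.14 and 1.88 ± 0.07 against WT, adjusted p = 2.73e-07 and 8.75e-08 by edgeR). Against untreated BA tissue, Amotl2 was higher, at 18.4, 29.6, 41.9, 20.3 and 23.2 CPM beside 14.3 to 17.5, without overlap (0.76 ± 0.22, adjusted p = 0.0394) and Myof lower (-0.27 ± 0.08, adjusted p = 0.0464), where 4.53% of all genes were higher and 8.5% lower, 13% in all, and both calls were lost in the fit of all 5 day 30 groups. Ankrd1 stood at 1.74, 4.09, 2.77, 0.633 and 0.766 CPM under antibiotics and 0.052 to 0.314 in WT, without overlap (3.26 ± 0.68, adjusted p = 0.00379), on 11 to 60 counts per library. Ccn1 ranged from 8.5 to 34.0 CPM, with library 2 highest, and its fold against WT was 1.21 ± 0.47 (adjusted p = 0.0625). The fibroblast markers spread widely in this group, from 1250 to 8040 CPM in sum, and library 3, at the top, was also the highest for Axl (112 CPM, the others 46.1 to 64.3). Sulindac against untreated A tissue gave 0 of 9 members, where 0% of all genes passed and DESeq2 called no member either. Myof alone had an unadjusted p under 0.05 by edgeR: 60.5, 51.1, 40.9 and 39.4 CPM beside 23.1 to 38.3, without overlap (0.62 ± 0.21, p = 0.0128), where 1.8% of all genes did not overlap. The share of all genes with such an unadjusted p was not counted.

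A list of YAP, TAZ, TEAD and Vgll genes, which did not hold Tead1, was also followed. In it Tead4, a TEAD factor known for its part in the early embryo, rose with F3 and Myof at day 30. Its mean was 15.4 CPM in BA tissue, 15.6 under antibiotics, 1.67 in A tissue and 1.75 in WT, a log2 fold change of 3.12 ± 0.29 in BA tissue (adjusted p = 6.2e-06), and it rose in BA tumours (2.23 ± 0.37, adjusted p = 0.0067) and in Apcfl/+ tumours (2.25 ± 0.23, adjusted p = 9.46e-05). For the counts that follow, 25.8% of all genes rose and 29.3% fell in BA tissue at day 30, and 7.46% rose and 5.71% fell in BA tumours. In Apcfl/+ tumours 31.4% rose and 61.5% passed in either direction. Of the 7 tested genes of this list, 2 rose (Tead4 and Yap1) and 1 fell (Wwtr1, which encodes TAZ, by 0.76 on the log2 scale) in BA tissue at day 30. There were 2 that rose in BA tumours (Tead4 and Vgll3) and 6 in Apcfl/+ tumours, led by Tead2 at 3.02. Among 20 Hippo kinases and adaptors, 12 rose and 4 fell in BA tissue at day 30, from Wwc1 (1.26, the scaffold KIBRA) to Frmd6 (-0.76), and 4 rose in BA tumours. Among 20 further YAP/TEAD targets, 5 rose and 8 fell at day 30, near the shares of all genes: Nt5e (1.99), Dock5 (1.27) and Areg (1.2), an EGFR ligand, were the most raised, and Nuak1 and Tgfb2 (both -1.00) the most lowered. In BA tumours 3 of these 20 rose (Areg, 2.77, Ccdc80, 1.40, and Dock5, 1.17) and none fell, and in Apcfl/+ tumours 12 rose and 5 fell, from Edn1 (2.39) to Nuak2 (-1.70). The list medians in these 3 comparisons were 0.06, 0.79 and 0.86, beside -0.03, 0.03 and 0.03 over all genes. Of 14 immediate early genes, which ERK signalling and tissue handling both induce, 9 rose and none fell in BA tissue at day 30, and their part in the changes above was not tested.

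Within groups, members differed in which cell type markers they varied with. Each member was set against 5 marker scores over 53 libraries with group means removed, 45 relations in all, of which 16 passed (permutation test within groups, adjusted over the 45). With fibroblast markers 7 of 9 members passed. Among them were Ccn1 (r = 0.45, permutation adjusted p = 0.0343) and Ccn2 (r = 0.49, permutation adjusted p = 0.0306). Axl varied most closely with fibroblast markers (r = 0.83, rho = 0.86, adjusted p = 0.00045, the smallest these permutations allow, and r = 0.89 without the 2 libraries farthest from the median score), and did so in each of the 4 sets of tissue and time (r = 0.90 over 7 libraries, 0.92 over 22, 0.86 over 16 and 0.68 over 8). Ajuba followed with fibroblast markers (r = 0.64, rho = 0.51) and endothelial markers (r = 0.74, rho = 0.43), but within the endpoint colon set its r with fibroblast markers was -0.17. Amotl2 and Lats2 varied with endothelial markers (r = 0.61 and 0.56, permutation adjusted p = 0.0116 and 0.00236). For Amotl2 this did not pass by rank (rho = 0.36, permutation adjusted p = 0.0606). It also failed without the 2 libraries farthest from the median score (r = 0.41, permutation adjusted p = 0.0817). Within the small intestine tumour set r was -0.69 for Amotl2 and 0.01 for Lats2. For F3 the relation with fibroblast markers (r = 0.49, rho = 0.46, permutation adjusted p = 0.0253) was not seen within day 30 tissue (r = -0.04 over 22 libraries) or the endpoint colon (0.03 over 7). In the small intestine its r was 0.87 at day 4 (16 libraries, the shallow one included) and 0.60 in the tumour set (8 libraries). Without the shallow Apcfl/fl library the r of F3 was 0.25 over all libraries. Then 9 of the 45 relations passed: the relations with fibroblast markers of Axl, Ajuba, Amotl2 and Lats2, and those with endothelial markers of these 4 and Myof. No member passed with epithelial markers over all libraries (r from -0.25 to 0.12). Without the 2 libraries farthest from the median score 2 did, F3 (r = 0.46, permutation adjusted p = 0.016) and Ccn2 (r = 0.4, permutation adjusted p = 0.0486). The shallow Apcfl/fl library was kept there. With only that library left out, r with epithelial markers was 0.02 for F3 and -0.04 for Ccn2. Within groups the SD of the epithelial score was 0.05 to 0.44, and that of the fibroblast score 0.07 to 0.93. A missing relation with a score of little spread does not show where the transcripts arise.

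**Figure D4:**
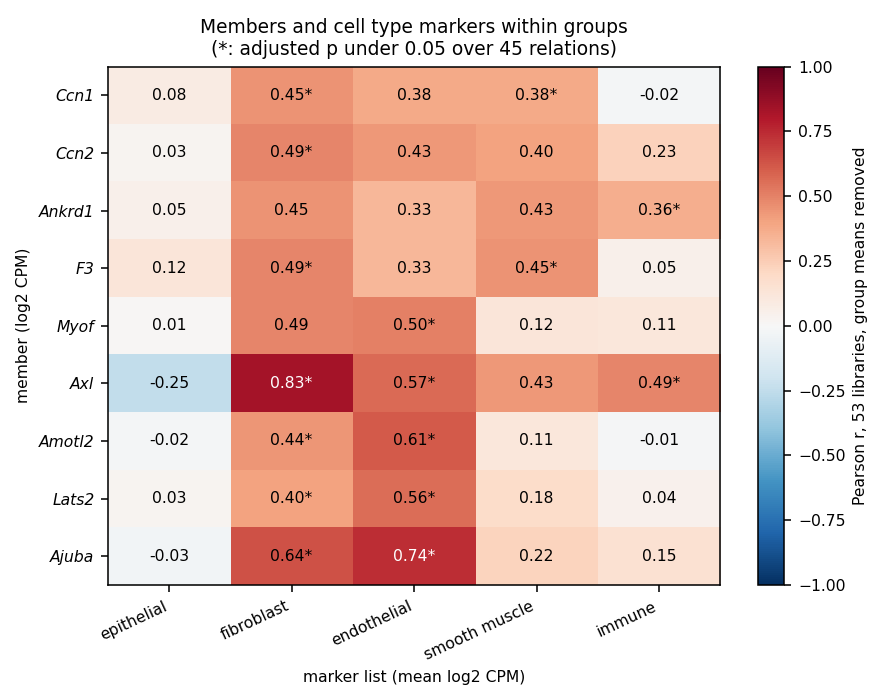
Pearson r of each member (rows, log2 CPM) with the mean log2 CPM of each marker list (columns) over 53 libraries with group means removed; stars mark an adjusted p under 0.05 over 45 relations. Axl with fibroblast markers has the highest r, 0.83, and the epithelial column runs from -0.25 to 0.12.

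**Figure D5:**
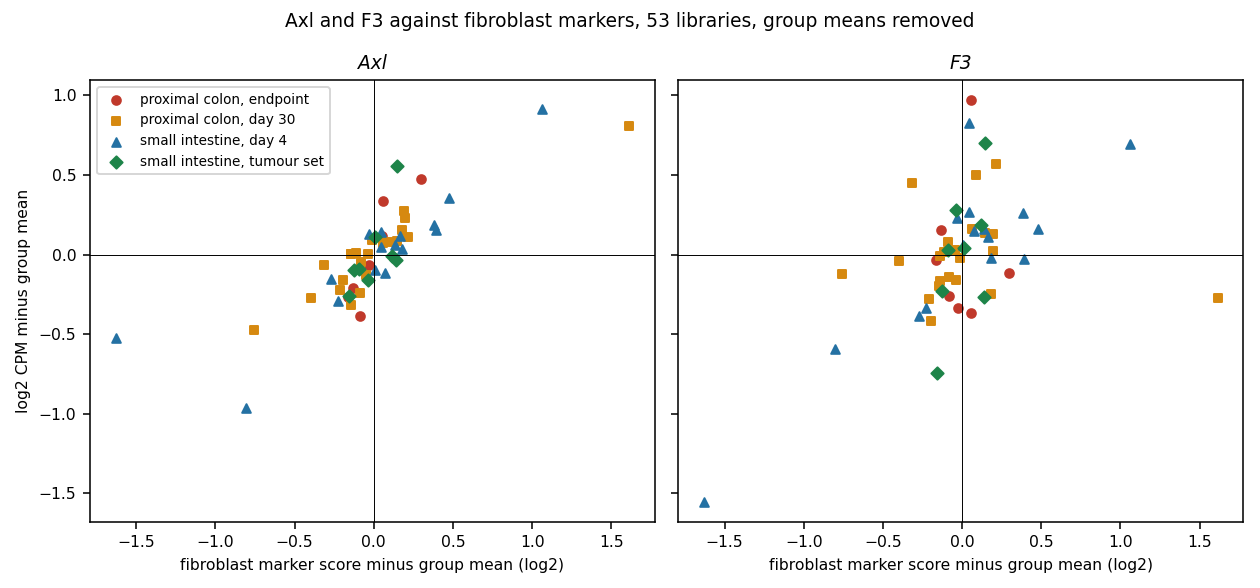
Log2 CPM of Axl (left) and F3 (right) minus the group mean against the fibroblast marker score minus the group mean, 1 point per library, with colour and shape for the set of tissue and time. Axl follows the score in each set (r from 0.68 to 0.92). F3 does not in the proximal colon sets (r of 0.03 and -0.04) and does in the small intestine sets (r of 0.87 and 0.60).

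The genes whose variation within groups was most like that of a member, by Pearson r over the same 53 libraries among 13830 genes, were Adgra2, Kirrel and Fn1 for Axl (0.90, 0.90 and 0.89), and Jag1, Ano1 and Arhgef40 for Myof (0.82, 0.81 and 0.80). They were Ppm1f, Arhgef40 and Sept8 for Ajuba (0.82, 0.79 and 0.79), Tjp1, Ablim1 and Fosl2 for Lats2 (0.79, 0.78 and 0.78) and Bicd2, Unc5b and Pecam1 for Amotl2 (0.76, 0.74 and 0.74). F3 was most like Foxf2, Fam129b and Thbs2 (0.75, 0.75 and 0.74), Ccn2 like Thbs2, F2r and Fzd1 (each 0.75), and Ccn1 like Afap1l2, Pls3 and Kctd17 (0.61, 0.61 and 0.60), the weakest match of the 9. Pecam1 is one of the endothelial markers. The libraries differ in depth and tissue sampling within groups, and these are descriptions.

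Per kilobase of exon, the order of the members changed with the state of the tissue. In WT proximal colon Axl was highest at a mean of 15.3 CPM per kilobase, ahead of F3 at 7.5, with Myof, Amotl2, Ccn2 and Ccn1 between 4.18 and 3.21. In BA tissue at day 30 F3 was first at 74.0, far ahead of Myof at 11.8 and Axl at 9.76. In BA tumours F3 was at 85.0 and Ccn2, number 5 of the 9 in WT, at 74.4, a pair whose ranges overlapped, followed by Axl at 30.8. Ankrd1 was last in all 3 groups, at 0.244, 0.222 and 2.29 CPM per kilobase.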

How the data were processed

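RNA from mouse intestinal tissue was sequenced as paired reads, and the authors deposited 1 table of raw counts per gene for the 53 libraries, not normalised. Per the submitters' processing notes, FastQC 0.11.8, Trim Galore 0.6.4, HISAT2 2.1.0 and featureCounts 1.6.4 were used with GRCm38, and the strand setting and the treatment of multi-mapping reads are not given in the sources used here. Libraries were grouped by their labels and no column was left out (0 columns of other samples). Each comparison was fitted on its own groups with edgeR 4.0.16 in R 4.3.3 (low counts removed by filterByExpr, TMM scaling, quasi-likelihood test, Benjamini-Hochberg adjustment over all genes tested, threshold 0.05), and differences of effects as contrasts over 4 groups. Intervals are 95% intervals, and a floor is 3 counts. p-values of the fits set each difference against the spread between these libraries. Marker relations were computed on log2 CPM (prior count 2), with p from 100000 permutations within groups. The scripts were tested on simulated data with 200 changed genes. Total counts per library, which set the precision of rare genes such as Ankrd1, are given above.

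Named were all 9 members in every comparison, the genes with the largest and smallest fold of each other list and up to 5 more, the 3 genes most like each member among genes with a mean log2 CPM of at least 1, and the genes the alleles target. The members and lists were chosen with earlier results of these data known. Promoters (250 bases) came from RefSeq and gene positions from GENCODE annotation of GRCm38. Alternatives were RLE scaling, no low-count filter, DESeq2 1.42.0, the replicate number as a block, a fibroblast score as a term, all 5 day 30 groups in 1 fit, and leaving out each library. A term for Y-linked reads and leaving out Apcfl/fl libraries 1, 5 and 8 were chosen after seeing the data.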

Additional observations from a re-analysis of the deposited data

Results flagged for a closer look

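Of 81 searches over members and groups of 4 to 10 libraries, 14 had 1 library apart from the rest of its group. The rule gives about 1 in 20 for independent normal values. The searches used untransformed CPM and the same libraries for every member, so 14 of 81 cannot be set against that rate. Apcfl/fl library 5 was highest for Ccn2 (117 CPM, the others 7.96 to 23.3), Ankrd1 (8.79, the others 0 to 0.32), Myof (97.8, the others 9.28 to 32.6) and Axl (95.2, the others 25.8 to 57.4). Apcfl/fl library 8 was lowest for Amotl2 (11.8 CPM, the others 24.0 to 35.7). Apcfl/+ tumour 2 was highest for Ccn2 (69.7 CPM, the others 20 to 28.1), Amotl2 (50.9, the others 31.1 to 35.2) and Axl (98.8, the others 56.1 to 65.6). BA tumour 4 was highest for F3 (386 CPM, the others 153 to 164) and Myof (422, the others 283 to 287). Among day 30 libraries, Ccn1 was high in A sulindac library 4 (30.7 CPM, the others 4.55 to 8.19), Ccn2 was low in BA library 5 (7.99, the others 17.4 to 19.8) and high in BA antibiotic library 2 (53.7, the others 19.5 to 29.3), and Axl was high in BA antibiotic library 3 (112, the others 46.1 to 64.3).

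A test of the difference itself set the BA effect in tumours apart from that at day 30 for Ccn2 (4.71 on the log2 scale), Ccn1 (2.1), Ajuba (1.76), Axl (1.46), Amotl2 (1.2) and Lats2 (0.72), and the BA tumour effect apart from the Apcfl/+ tumour effect for Myof (1.55) and Lats2 (0.86).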

How the results depend on the processing

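F3 and Myof were called in every alternative run of BA day 30, and BA antibiotic, against WT, and of BA against A. Members called in BA tumours (7) became 0 with a fibroblast score as a term, where 2 genes were called in all, and 3 with a term for Y-linked reads, and 4 to 8 on leaving out 1 library (4 without WT library 1). For BA antibiotic against WT (3), DESeq2 gave 5 and leaving out 1 library 3 to 5. For A against WT (0), DESeq2 gave 2. For Apcfl/+ tumours (6), the fibroblast score gave 1. For BA antibiotic against BA (2), no filter gave 1, DESeq2 4, the fibroblast score 0, the fit of all 5 day 30 groups 0 and leaving out 1 library 0 to 2. For the difference of BA and Apcfl/+ tumours (2), no filter gave 1 and leaving out 1 library 1 to 4. Of the 45 marker relations, 16 passed, and 9 without Apcfl/fl library 1. The cause of these shifts was not tested.

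Replicate numbers did not pair libraries (correlations of same-numbered libraries from -0.44 to 0.23). With the replicate number as a block, 6 members were called for BA antibiotic against WT and 0 for BA antibiotic against BA, and signs changed for Axl in BA antibiotic against WT (-0.08) and Apcfl/fl (0.02), Ajuba in BA antibiotic against BA (-0.04) and Ccn1 in A sulindac against A (-0.37).

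Sign changes with the fibroblast score were, in BA tumours, Lats2 -0.29 and Axl -0.28, in BA day 30 against WT, Ccn2 0.17 and Amotl2 0.06, in BA antibiotic against WT, Axl -0.13, in A, Axl 0.03, and in Apcfl/fl, Axl 0.20. They were also, in Apcfl/+ tumours, Amotl2 -0.39, Lats2 0.09 and Axl -0.76, in BA antibiotic against BA, Lats2 -0.01 and Ajuba -0.42, in A sulindac against A, Ccn1 -0.25, and in BA against A, Ccn1 0.32, Ccn2 0.08, Ankrd1 1.25, Amotl2 0.50 and Axl 0.11. Axl in BA antibiotic against WT, at 0.00, was -0.00 with RLE scaling and DESeq2, -0.04 with no filter and -0.03 in the fit of all day 30 groups. Myof in Apcfl/fl was -0.00 with the Y-linked term and -0.06 without libraries 1, 5 and 8, and the difference of BA and Apcfl/+ tumours for Ccn1 was -0.12 with no filter. Of 68 sign changes over all alternatives, 2 were of called values, both of Axl (BA tumours, and BA against A).

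Leaving out 1 library changed signs only of values not called: in BA antibiotic against WT, Lats2 (-0.11 to 0.01), Axl (-0.29 to 0.09) and Ajuba (-0.04 to 0.37), in A, Amotl2 (-0.13 to 0.17), Myof (-0.19 to 0.03) and Axl (-0.12 to 0.05), in A sulindac against WT, Ccn1 (-0.11 to 1.16), Ccn2 (-0.45 to 0.03) and Ajuba (-0.10 to 0.36), and in Apcfl/fl, Myof (-0.25 to 0.28). The others were, in BA antibiotic against BA, Ajuba (-0.28 to 0.16), in A sulindac against A, Ccn1 (-0.92 to 0.37), Lats2 (-0.15 to 0.18), F3 (-0.06 to 0.29) and Ajuba (-0.32 to 0.18), in BA against A, Amotl2 (-0.23 to 0.09) and Ajuba (-0.02 to 0.12), and in the differences of effects, F3 (-0.22 to 0.37) and Ccn1 (-0.23 to 0.21).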
